A study of Mus musculus with 6 samples.

Results

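Surface and niche markers of muscle stem cells (MuSCs) are the proteins by which these cells are recognised, sorted and held in place beside the muscle fibre. The 10 genes described here, Calcr, Cd34, Vcam1, Cdh15, Itga7, Cxcr4, Ncam1, Met, Megf10 and Cav1, were taken by their gene symbol from a table of 22706 genes, and all 10 were found. RNA was measured in 6 libraries of freshly isolated mouse MuSCs, with 2 libraries in each of 3 groups, which the methods of the study call biological replicates without saying whether animals were pooled. The labels give the control genotype as wild type. Mdx mice carry a mutation that abolishes dystrophin and model Duchenne muscular dystrophy. Sirt6mKO/mdx mice carry in addition a deletion of Sirt6, a histone deacetylase, by a Cre that is active from the Pax7 promoter and removes exons 4 to 6 in the muscle lineage. The labels give the strain C57BL/6 for every library, and the study names a C57BL/10ScSn stock as the source of the mdx mutation and a C57BL/6 background with littermate controls for its mice. The labels give neither age nor sex, and where the study shows these data it names young adult male mice. Whether the mdx animals carried the Cre or the floxed allele is not given in the sources used here.

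MuSCs lie between the fibre membrane and the basal lamina. Cadherins and NCAM hold them to the fibre, integrin alpha-7 binds the laminin of the basal lamina, and VCAM1 binds integrins of neighbouring cells. The calcitonin receptor (Calcr) is known to hold adult MuSCs in quiescence. MET, the receptor of hepatocyte growth factor, conveys signals that alert and activate them. CXCR4 responds to the chemokine CXCL12 and guides migration. Caveolin-1 (Cav1) builds the small membrane invaginations called caveolae, CD34 is a sialomucin of stem and endothelial cells, and MEGF10 is a transmembrane protein with EGF-like repeats that regulates myoblast proliferation and differentiation. Cells were sorted in the study as negative for Sca1, CD45 and CD31 and positive for integrin alpha-7 and CD34, or by a fluorescent reporter of Pax7 lineage; which of these gates was used for a given library is not given in the sources used here. The levels of Itga7 and Cd34 may therefore have been set in part by the sort, which was not tested.

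The library depth, estimated as reads assigned to genes, was approximately 4397632 to 9745218 reads. By library it was 4397632 and 7216692 (control), 9745218 and 7217224 (mdx) and 6218689 and 4770337 (Sirt6mKO/mdx-labelled). Values are normalized read counts, that is, reads divided by 1 size factor per library. Sirt6, summed over all its exons, was at 41 and 32 (control), 33 and 40 (mdx) and 37 and 30 (Sirt6mKO/mdx-labelled). A lower level was thus not detected, but these low values cannot decide whether Sirt6 was lost. In the Sirt6mKO/mdx-labelled libraries against mdx, the log2 fold change of Sirt6 was -0.12 (limma, interval -1.19 to 0.95). That interval includes a 2-fold lower level, and values summed per gene do not show the deleted exons separately. The directions below therefore rest on the label of this group. Xist was at 16772 and 12950 in control and at 7 to 34 in the other 4 libraries, while the Y-linked Ddx3y was at 3 and 8 in control and at 1024 to 1767 in the others, so the control libraries go against the male sex that the study names. In both comparisons with control, the sex that these genes mark and the genotype therefore cannot be told apart. None of the 10 marker genes lies on the X or Y chromosome. The 24 listed immediate early and dissociation response genes, such as Fos and Jun, summed to 25347 and 28862 in mdx against 138980 to 210108 in the other 4 libraries, and the 8 listed proliferation genes to 714 and 1214 in mdx against 128 to 585 in the others. The 10 listed myofibre genes summed to 16644 and 13016 in mdx against 21378 to 42270 in the others; 4 of them were called lower in mdx than in control, against 7.34% of all tested genes, and 3 higher in the Sirt6mKO/mdx-labelled libraries than in mdx, against 5.62%. The 8 listed smooth muscle and pericyte genes went both ways in mdx against control, with a median of -0.05 on the log2 scale, and Acta2 was called higher (1.18, limma adjusted p 0.027) and Abcc9 lower (-1.43, adjusted p 0.020), against 14.2% of all tested genes called. Of the same list, Tagln was called lower in the Sirt6mKO/mdx-labelled libraries than in mdx (-1.56) and than in control (-1.38), against 8.17% and 7.87% called. For Tagln, 67.9% of the exonic bases overlap the genes Gm48529 and Pcsk7 on the other strand, so its value is uncertain. Of the 10 listed fibro-adipogenic genes, Col1a1 (1.4) and Ly6a (2.73) were called higher in mdx than in control, against 6.89% of all tested genes. In that comparison 8 of the 10 were above 0 and 2 below (median 0.68). Col1a1 (-1.08) was called lower in the Sirt6mKO/mdx-labelled libraries than in mdx, against 2.54%, where 5 of the 10 were above 0 and 5 below. Against control, 7 of the 10 were above 0 in these libraries and 3 below (median 0.44), and 0 were called. The part of any of these in the results below was not tested. In bulk RNA, fewer cells of a type and less RNA per cell cannot be told apart.

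All 10 genes were strongly expressed in every library, and all passed the minimum mean of 5 that defined the 15915 genes tested. Their means over the 6 libraries ran from 747 for Cxcr4 to 4488 for Vcam1, and at least 92.5% of the tested genes had a lower mean. The transcription factors Pax7 and Myf5, which define MuSCs, were at 2167 to 3236 and at 1669 to 3258, so genes that mark these cells were present throughout. Per kilobase of exon, Cav1 had the highest level in each group, with a mean of 646 in control, 1542 in mdx and 1245 in the Sirt6mKO/mdx-labelled libraries. In control Cdh15 (462), Vcam1 (419) and Cxcr4 (392) followed, and in each of these 3 steps the libraries of neighbours did not overlap. Megf10 (313), Calcr (311), Itga7 (304) and Ncam1 (277) could not be ordered, as their libraries overlapped from one to the next. Cd34 (139) and Met (70.7) had the lowest levels per kilobase in control. In mdx the lowest were Ncam1 (147) and Cd34 (135), which overlapped, with Met above them at 194, and in the Sirt6mKO/mdx-labelled libraries the lowest were Met (93.2) and Ncam1 (87.0), which overlapped.

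**Figure D1:**
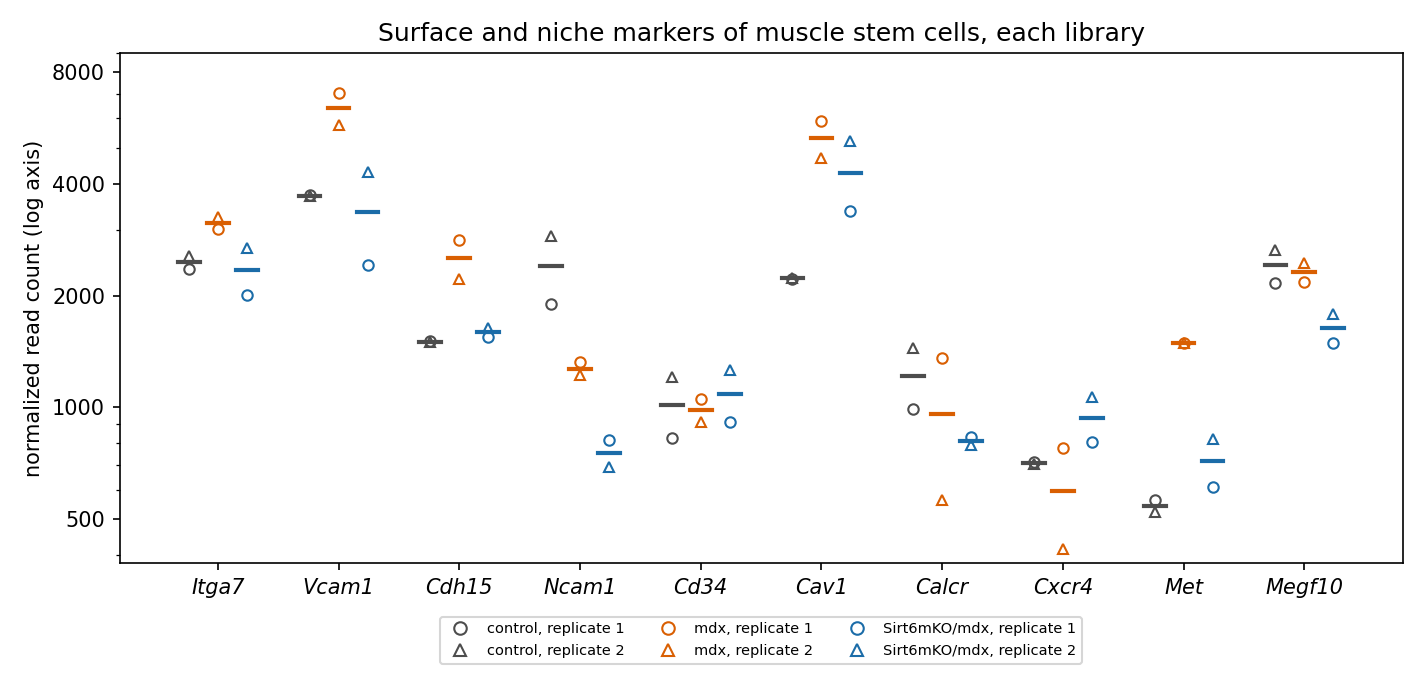
Normalized read count (log axis) of the 10 marker genes in each of the 6 libraries, coloured by group, with circles for replicate 1, triangles for replicate 2 and horizontal bars for group means (n = 2). Met was at 1489 and 1486 in mdx and between 524 and 821 in the other libraries, whereas Ncam1 was at 1903 and 2893 in control and at 689 to 1322 elsewhere.

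Most of these markers differed by less than 2-fold between group means. A gene was called when its adjusted p (limma, Benjamini-Hochberg over the 15915 genes) was at most 0.05 and its log2 fold change at least 1 in size. In mdx against control, 2 of the 10 genes were called, Met and Cav1, both higher. Among all tested genes 14.2% were called, 6.89% higher and 7.34% lower, and 3 of the 10 against 16.6% reached the adjusted p at any size of change. In the Sirt6mKO/mdx-labelled libraries against mdx, only Met was called, lower, against 8.17% of all tested genes called, 5.62% higher and 2.54% lower, and 9.15% at the adjusted p at any size. Against control only Ncam1 was called in these libraries, lower, against 7.87% called, 5.19% higher and 2.68% lower, and 8.90% at the adjusted p at any size. With scaling by total counts 6 markers were called against mdx and 3 against control, all lower, and among all genes the calls went from 895 higher and 405 lower to 479 and 2932 against mdx and from 826 and 427 to 455 and 2692 against control. With the deposited scaling the counts are small, and none of them sets the markers apart as a group. The median log2 fold change of the 10 genes was 0.16, -0.47 and 0.00 in the 3 comparisons, and that of all tested genes was 0.00, 0.02 and 0.01. Non-overlapping groups were seen for 6, 7 and 7 of the 10 genes, against 57.0%, 56.0% and 51.6% of all tested genes. Any 2 of the 3 comparisons share a group of libraries, so they are not independent.

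**Figure D2:**
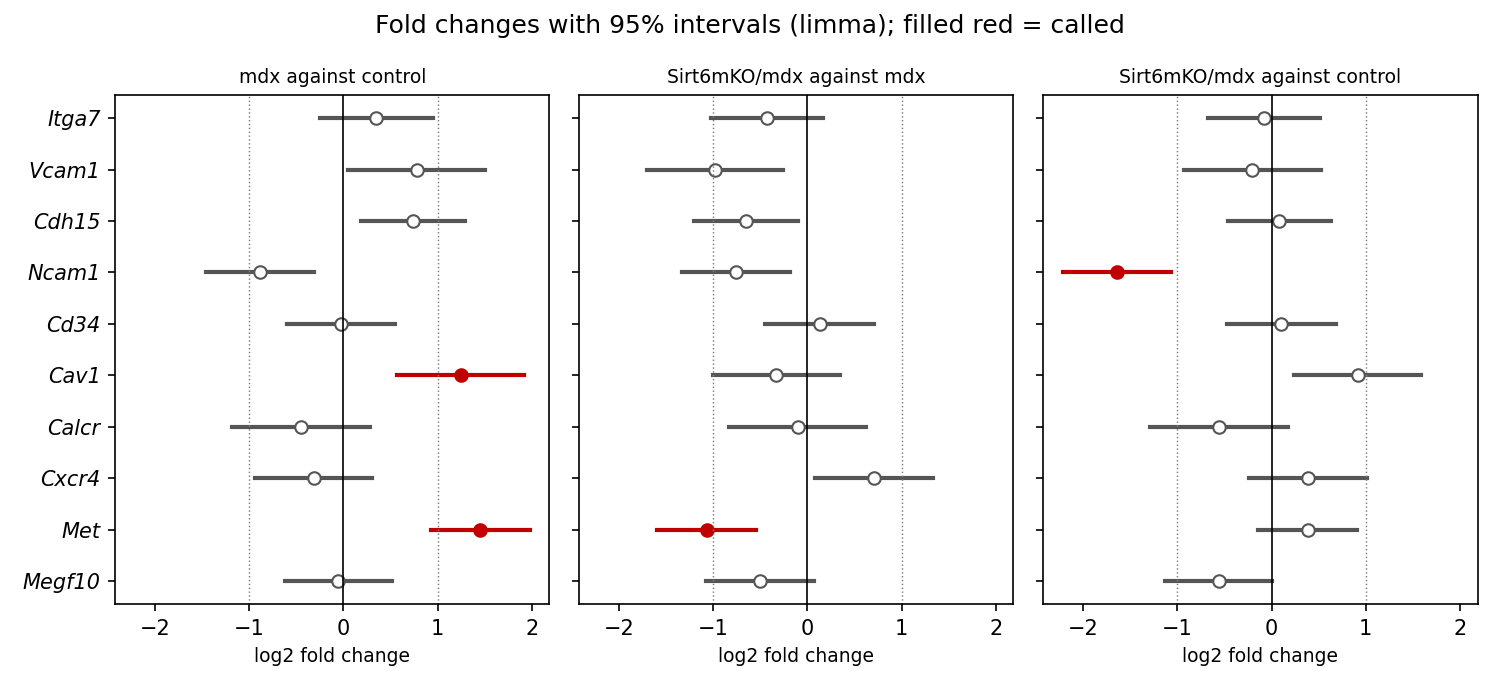
Log2 fold change (points) with 95% interval (bars) of each marker gene in the 3 comparisons, from limma on 6 libraries; filled red points are called, and dotted lines mark a log2 fold change of 1 in size. Met lies at 1.45 in mdx against control and at -1.07 in the Sirt6mKO/mdx-labelled libraries against mdx, and Ncam1 at -1.64 in these libraries against control; with scaling by total counts, Met, Cdh15, Cd34 and Cxcr4 change side in the last comparison and Cd34 in the middle one.

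Met (ENSMUSG00000009376; GRCm38 chromosome 6, 17463800 to 17573980, plus strand), the receptor tyrosine kinase for hepatocyte growth factor, was the marker with the largest rise in mdx. It was at 562 and 524 (control), 1489 and 1486 (mdx) and 610 and 821 (Sirt6mKO/mdx-labelled). Every mdx library lay above all 4 others, and the Sirt6mKO/mdx-labelled libraries lay just above control without overlap. Group means (SD, n = 2) were 543 ± 26.9 (control) and 1488 ± 2.12 (mdx), with a fitted rise of 2.74-fold (folds between groups come from the fit on the log2 scale), or 1.45 on the log2 scale (SE 0.25, adjusted p 0.000982). This call was lost with a single prior variance for all genes (1.45). With each library left out in turn the values ran from 1.4 to 1.50 and were called. Where a compared group is left with 1 library, here and below, the fit takes its spread from the other groups and assumes that the lone library varies like them. Met was 2.10-fold lower in the Sirt6mKO/mdx-labelled libraries than in mdx, or -1.07 on the log2 scale (SE 0.25, adjusted p 0.0143). This second call was lost without mdx replicate 1 (-1.07), mdx replicate 2 (-1.07), Sirt6mKO/mdx replicate 1 (-0.86) or Sirt6mKO/mdx replicate 2 (-1.28). The second call was also lost without a filter on low values and with a single prior variance. Against control the log2 fold change was 0.38, with a 95% interval from -0.14 to 0.90, and it turned to -0.22 with scaling by total counts. Hgf, which encodes the ligand, was at 0 and 0 in control and at 2 to 9 elsewhere and was not tested. The docking protein genes of the MET pathway, Gab1 (436 to 703) and Grb2 (127 to 272), were not called in any comparison.

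The RefSeq promoter windows (GRCm38.p6, 250 bases before to 50 after the start site) were searched for motifs, and 6 of the 10 genes had at least 1 window, with 8 windows in all. Vcam1, Itga7, Ncam1 and Megf10 had none. The window of Met and the first of the 2 windows of Cav1, the genes called higher in mdx, are printed, 5′ to 3′ on the plus strand, with letters of the AP-1 motif (TGANTCA) and the RBPJ motif (TGGGAA) on either strand in capitals. AP-1 is the dimer of FOS and JUN proteins, whose genes are in the immediate early list, and RBPJ is the factor through which Notch acts.
Met, chr6:17463707-17464006: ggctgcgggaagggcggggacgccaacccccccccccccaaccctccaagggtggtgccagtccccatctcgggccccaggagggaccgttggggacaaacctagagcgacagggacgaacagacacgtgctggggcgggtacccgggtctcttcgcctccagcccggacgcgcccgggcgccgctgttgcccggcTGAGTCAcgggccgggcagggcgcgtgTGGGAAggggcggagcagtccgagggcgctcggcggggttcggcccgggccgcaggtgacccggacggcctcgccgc
Cav1, chr6:17306085-17306384: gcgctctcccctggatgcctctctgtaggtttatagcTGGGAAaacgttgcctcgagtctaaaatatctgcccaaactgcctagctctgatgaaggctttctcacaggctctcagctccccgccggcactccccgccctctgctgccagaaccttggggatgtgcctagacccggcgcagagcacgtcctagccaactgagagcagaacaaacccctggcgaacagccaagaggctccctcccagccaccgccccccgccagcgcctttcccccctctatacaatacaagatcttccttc
In the Met window the AP-1 match began 54 bases and the RBPJ match 27 bases before the start site. AP-1 matches were present in 7.81% of all 32851 promoter windows and, of the markers, in that of Met alone. The RBPJ motif was present in 25.6% of all windows and, of the 8, in that of Met and the printed one of Cav1. An E-box (CANNTG), the motif of MYOD and other basic helix-loop-helix factors, was present in 5 of the 8 windows, against 72.3% of all. A GC box (GGGCGG) was present in 5 of 8 against 35.7%, and a TATA box (TATAAA) in 2 of 8, the printed one of Cav1 and that of Cxcr4, against 13.6%. Both strands were searched for every motif, matches of different motifs could overlap, and those in the Met window did not. A match describes the letters and not a bound site.

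The other receptors did not pass the test in any comparison with the deposited scaling. Cxcr4 (ENSMUSG00000045382; chromosome 1, 128588199 to 128592293, minus strand) was at 713 and 704 (control), 779 and 415 (mdx) and 805 and 1065 (Sirt6mKO/mdx-labelled). The last group lay above all other libraries, while the mdx libraries differed 1.88-fold and enclosed the control values. The log2 fold change from mdx was 0.70 (interval 0.08 to 1.33, adjusted p 0.149), and leaving out mdx replicate 2 gave 0.25, leaving out mdx replicate 1 gave 1.16, and scaling by total counts gave 0.076. In mdx against control it was -0.32 (interval -0.94 to 0.31), and it turned to 0.14 without mdx replicate 2. Against control the value for the Sirt6mKO/mdx-labelled libraries was 0.39 (interval -0.24 to 1.01), which scaling by total counts turned to -0.22. Leukocytes also express Cxcr4. Of the 10 listed macrophage and leukocyte genes 6 were tested, and their median log2 fold change was 1.86 in mdx against control, 0.76 in the Sirt6mKO/mdx-labelled libraries against mdx and 2.62 in these against control. Lyz2 was called higher in mdx (3.22) and in the Sirt6mKO/mdx-labelled libraries (3.75) than in control, and Cd68 lower in mdx (-1.60). Against control, 2 of the 6 were thus called in mdx and 1 in the Sirt6mKO/mdx-labelled libraries, against 14.2% and 7.87% of all tested genes. In control Lyz2 was at 0 and 14, near the floor. Ptprc, which encodes the CD45 of the sort, was at 0 in both control libraries and at 3 to 19 in the others. The list summed to 109 and 135 (control), 121 and 94 (mdx) and 206 and 216 (Sirt6mKO/mdx-labelled), and its part in the values of Cxcr4 was not tested.

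Of the genes around CXCR4, Ackr3, which encodes the scavenger receptor that removes CXCL12, was at 1270 and 1717 (control), 341 and 185 (mdx) and 715 and 663 (Sirt6mKO/mdx-labelled). It was called in all 3 comparisons. It fell 5.86-fold in mdx (log2 fold change -2.55, SE 0.29, adjusted p 3.5e-05), was 2.73-fold higher in the Sirt6mKO/mdx-labelled libraries than in mdx (1.45, adjusted p 0.0068) and stayed 2.14-fold below control there (-1.10, adjusted p 0.030). With total counts the value against mdx was 0.82 and its call was lost. The call was also lost without mdx replicate 2 (1.01) and without either Sirt6mKO/mdx library (1.4 without replicate 1 and 1.51 without replicate 2), and the value was 1.89 without mdx replicate 1. The call against control was lost without control replicate 2 (-0.88) and without either library of the Sirt6mKO/mdx label (-1.15 and -1.05). The ligand gene Cxcl12 was at 98 and 118, 180 and 136, and 195 and 141 in the 3 groups and was not called.

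Calcr (ENSMUSG00000023964; chromosome 6, 3685677 to 3764713, minus strand), the receptor that holds MuSCs in quiescence, was at 989 and 1444 (control), 1354 and 564 (mdx) and 834 and 793 (Sirt6mKO/mdx-labelled). The mdx libraries differed 2.4-fold from each other, the widest spread of any marker within a group, and overlapped both other groups. The log2 fold change was -0.45 in mdx (interval -1.18 to 0.28), but 0.18 without mdx replicate 2 and -1.08 without mdx replicate 1. Against mdx, the value for the Sirt6mKO/mdx-labelled libraries was -0.10 (interval -0.83 to 0.63), and it turned to 0.53 without mdx replicate 1. These libraries lay below both control libraries, with a log2 fold change of -0.55 (interval -1.28 to 0.17, adjusted p 0.347), which with total counts was -1.16 and called. The interval for mdx includes a 2-fold lower level. Of the genes for its accessory proteins, Ramp2 was at 164 to 245, Ramp1 at 0 to 8 and Ramp3 at 0 in every library, and the related receptor gene Calcrl was at 11 to 79. For Ramp2, 33.4% of the exonic bases overlap the gene Vps25 on the same strand, so its value is uncertain.

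Among the adhesion molecules, Ncam1 was the one that passed the test, lower in the Sirt6mKO/mdx-labelled libraries than in control. Ncam1 (ENSMUSG00000039542; chromosome 9, 49504361 to 49798922, minus strand), which encodes the neural cell adhesion molecule, was at 1903 and 2893 (control), 1322 and 1223 (mdx) and 819 and 689 (Sirt6mKO/mdx-labelled). The 3 groups did not overlap and stood in this order. The log2 fold change in mdx was -0.88 (SE 0.27, adjusted p 0.0351), which is under the minimum size for a call, and 16.6% of all tested genes reached this adjusted p at any size. It was -1.19 without control replicate 1, where the gene was called, and -0.58 without control replicate 2. Against mdx, the Sirt6mKO/mdx-labelled libraries were at -0.76 (interval -1.33 to -0.19, adjusted p 0.0910), and with total counts at -1.39 and called. Against control, with means of 754 ± 91.9 and 2398 ± 700.0 (SD, n = 2), Ncam1 was lower in them by a fitted 3.12-fold, or -1.64 on the log2 scale (SE 0.27, adjusted p 0.00143). The value ranged from -1.94 to -1.34 with 1 library left out, and the call was lost without Sirt6mKO/mdx replicate 2 (-1.52). The call was also lost with a single prior variance for all genes (-1.64). Of the exonic bases of Ncam1, 4.81% overlap the gene Gm11149 on the other strand, so a small part of its reads is uncertain. Schwann cells also express Ncam1, and of their listed genes Ngfr was at 79 to 189, Mbp at 9 to 32 and Cdh19 at 0 to 6; their part in the values of Ncam1 was not tested.

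**Figure D3:**
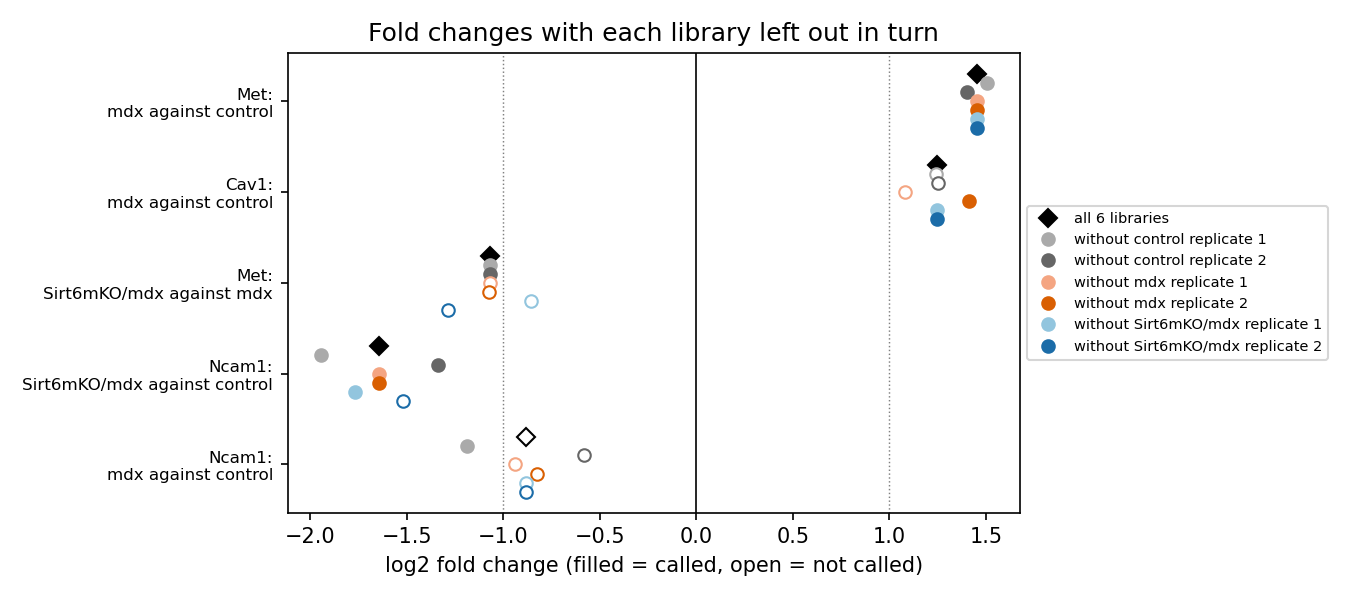
Log2 fold change of the called results for Met, Cav1 and Ncam1 and of Ncam1 in mdx against control, with all 6 libraries (diamonds) and with each library left out in turn (circles); filled symbols are called and open ones are not. Met in mdx against control stays between 1.4 and 1.50 and called, whereas Met in the Sirt6mKO/mdx-labelled libraries against mdx is called only when a control library is the one left out.

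Vcam1 (ENSMUSG00000027962; chromosome 3, 116110020 to 116129688, minus strand), the ligand of alpha-4 beta-1 integrin, was at 3730 and 3697 (control), 7031 and 5753 (mdx) and 2413 and 4302 (Sirt6mKO/mdx-labelled). Both mdx libraries lay above all others, while the Sirt6mKO/mdx-labelled libraries differed 1.78-fold and enclosed the control values. The log2 fold change was 0.78 in mdx (interval 0.05 to 1.50, adjusted p 0.135) and -0.98 in the Sirt6mKO/mdx-labelled libraries against mdx (interval -1.71 to -0.25, adjusted p 0.0862), so neither passed. The latter was -0.56 without Sirt6mKO/mdx replicate 1 and -1.40 without Sirt6mKO/mdx replicate 2, and with scaling by total counts it was -1.61 and called. Against control it was -0.20 (interval -0.93 to 0.52), and 0.21 without Sirt6mKO/mdx replicate 1. Of its receptor subunit genes, Itga4 was at 0 to 20 and Itgb1 at 1980 and 3159 (control), 4921 and 4239 (mdx) and 1871 and 2787 (Sirt6mKO/mdx-labelled). Itgb1 was not called.

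Cdh15 (ENSMUSG00000031962; chromosome 8, 122848374 to 122867397, plus strand) encodes M-cadherin, which joins MuSCs to the fibre. It was at 1508 and 1497 (control), 2818 and 2220 (mdx) and 1545 and 1640 (Sirt6mKO/mdx-labelled). The mdx libraries again lay above all others, and the remaining 4 lay within a narrow range. The log2 fold change was 0.73 in mdx (interval 0.18 to 1.28, adjusted p 0.0647) and -0.65 in the Sirt6mKO/mdx-labelled libraries against mdx (interval -1.20 to -0.10, adjusted p 0.130), the latter -1.28 and called with total counts. Against control the latter were at 0.08 (interval -0.47 to 0.63), and at -0.52 with scaling by total counts. N-cadherin (Cdh2), the other cadherin of the MuSC to fibre contact, was far less abundant but moved more. Cdh2 was at 27 and 43 (control), 224 and 202 (mdx) and 99 and 58 (Sirt6mKO/mdx-labelled). It rose 6.09-fold in mdx (log2 fold change 2.61, SE 0.40, adjusted p 0.00044) and was 2.78-fold lower in the Sirt6mKO/mdx-labelled libraries than in mdx (-1.48, adjusted p 0.032). This second call was lost without any 1 of the 4 libraries compared, with values from -1.86 to -1.10. The catenin genes Ctnnb1, Ctnna1 and Ctnnd1, which link cadherins to actin, were not called. For Ctnnd1, 61.2% of the exonic bases overlap the gene Gm28635 on the same strand, so its value is uncertain.

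Itga7 (ENSMUSG00000025348; chromosome 10, 128933813 to 128958277, plus strand), the laminin receptor subunit used in the sort, was among the steadiest markers. It was at 2364 and 2556 (control), 3022 and 3250 (mdx) and 2010 and 2684 (Sirt6mKO/mdx-labelled). The mdx libraries were the highest, and those of the other groups overlapped. The log2 fold changes were 0.35 (interval -0.24 to 0.95), -0.43 (interval -1.03 to 0.16) and -0.08 (interval -0.68 to 0.51) in mdx against control, in the Sirt6mKO/mdx-labelled libraries against mdx and in these against control. The last turned to 0.13 without Sirt6mKO/mdx replicate 1, and with total counts the value against mdx was -1.06 and called. The laminin gene Lama2, whose chain integrin alpha-7 binds, was at 6799 and 7643 (control), 6856 and 7166 (mdx) and 3191 and 3174 (Sirt6mKO/mdx-labelled). Lama2 was 2.20-fold lower there than in mdx (log2 fold change -1.14, SE 0.32, adjusted p 0.041) and 2.26-fold lower than in control (-1.18, adjusted p 0.034). Each of these calls was lost without any 1 of the 4 libraries compared, with values from -1.17 to -1.11 and from -1.26 to -1.09.

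Cd34 (ENSMUSG00000016494; chromosome 1, 194938821 to 194961292, plus strand), the other marker of the sort, overlapped in every comparison. It was at 826 and 1205 (control), 1052 and 913 (mdx) and 912 and 1262 (Sirt6mKO/mdx-labelled). The log2 fold changes were -0.03 (interval -0.60 to 0.55), 0.13 (interval -0.45 to 0.71) and 0.10 (interval -0.47 to 0.68) in the same order, and leaving out 1 library changed the sign of each. A change of 2-fold in either direction lies outside these intervals, which hold for the deposited scaling only. Scaling by total counts turned the value against mdx to -0.50 and that of the Sirt6mKO/mdx-labelled libraries against control to -0.50. Megf10 (ENSMUSG00000024593; chromosome 18, 57133090 to 57297467, plus strand) was at 2169 and 2659 (control), 2180 and 2450 (mdx) and 1489 and 1782 (Sirt6mKO/mdx-labelled). The last group lay below the other 4 libraries, which overlapped. The log2 fold change of the Sirt6mKO/mdx-labelled libraries was -0.50 against mdx (interval -1.07 to 0.07, adjusted p 0.256) and -0.56 against control (interval -1.13 to 0.01, adjusted p 0.215). Neither passed with the deposited scaling, and both were called with total counts (-1.13 and -1.16). In mdx against control it was -0.06 (interval -0.62 to 0.51). Megf11, the paralogue of Megf10, was at 32 to 105 and was not called.

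Cav1 (ENSMUSG00000007655; chromosome 6, 17306335 to 17341452, plus strand), the structural protein of caveolae, was the second marker called in mdx. It was at 2216 and 2231 (control), 5921 and 4702 (mdx) and 3377 and 5200 (Sirt6mKO/mdx-labelled). All 4 libraries from dystrophic mice lay above control, and the groups of dystrophic mice overlapped. Group means (SD, n = 2) were 2224 ± 10.6 (control) and 5312 ± 862 (mdx), with a fitted rise of 2.37-fold, or 1.25 on the log2 scale (SE 0.32, adjusted p 0.0145). The call was lost without control replicate 1 (1.24), control replicate 2 (1.25) or mdx replicate 1 (1.08). The call was also lost without a filter on low values and with a single prior variance for all genes, each at 1.25. The Sirt6mKO/mdx-labelled libraries were at -0.33 against mdx (interval -1.01 to 0.34) and at 0.91 against control (interval 0.24 to 1.59, adjusted p 0.0876), so neither passed. The latter was 0.60 without Sirt6mKO/mdx replicate 2 and 1.23 without Sirt6mKO/mdx replicate 1, and with total counts the values were -0.96 against mdx and 0.31 against control. Cav1, Cd34 and Vcam1 are also genes of endothelium. The 12 listed endothelial genes summed to 444 and 505 (control), 155 and 211 (mdx) and 234 and 318 (Sirt6mKO/mdx-labelled), with 3 of 10 tested called lower in mdx, against 7.34% of all tested genes. Of these genes Pecam1, which encodes the CD31 of the sort, was at 20 to 199, Eng at 39 to 206, Cdh5 at 2 to 30 and Cldn5 at 0 to 9. Their part in the values of Cav1, Cd34 and Vcam1, and that of the smooth muscle and fibro-adipogenic genes, was not tested.

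The other caveola genes were followed next, as Cav1 acts together with caveolin-2 and the cavins. Cav2, which lies 17.2 kb upstream of Cav1, was at 136 and 83 (control), 386 and 341 (mdx) and 362 and 547 (Sirt6mKO/mdx-labelled). It rose 3.39-fold in mdx (log2 fold change 1.76, SE 0.30, adjusted p 0.0012), with values from 1.41 to 2.11 when 1 library was left out. It was 4.16-fold above control in the Sirt6mKO/mdx-labelled libraries (2.06, adjusted p 0.00065), a call lost without Sirt6mKO/mdx replicate 2 (1.76). Cavin3 was at 251 and 277 in control and 580 and 524 in mdx, a 2.09-fold rise (1.06, adjusted p 0.017) that lost its call without control replicate 1 (0.99), mdx replicate 1 (0.99) or mdx replicate 2 (1.13). In the Sirt6mKO/mdx-labelled libraries Cavin3 was at 361 and 620. Of its exonic bases 22.5% overlap Gm45667 on the other strand. Cavin1 was at 1429 and 1364, 2366 and 2471, and 1534 and 1623 in the 3 groups, with an adjusted p of 0.041 in mdx at a log2 fold change of 0.79, under the minimum size. In the Sirt6mKO/mdx-labelled libraries Cavin1 was lower than in mdx (-0.62) and was not called. Cavin2, unlike Cav1, Cav2, Cavin1 and Cavin3, lay below control in these libraries (-0.91, limma adjusted p 0.078), a difference that was not called. It was at 1503 and 2751 (control), 3289 and 2793 (mdx) and 980 and 1197 (Sirt6mKO/mdx-labelled), and was 2.80-fold lower in the last group than in mdx (-1.48, SE 0.31, adjusted p 0.0075). Its call was lost without any 1 of the 4 libraries compared, with values from -1.63 to -1.34. Muscle-specific Cav3 was at 6 to 12.

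**Figure D4:**
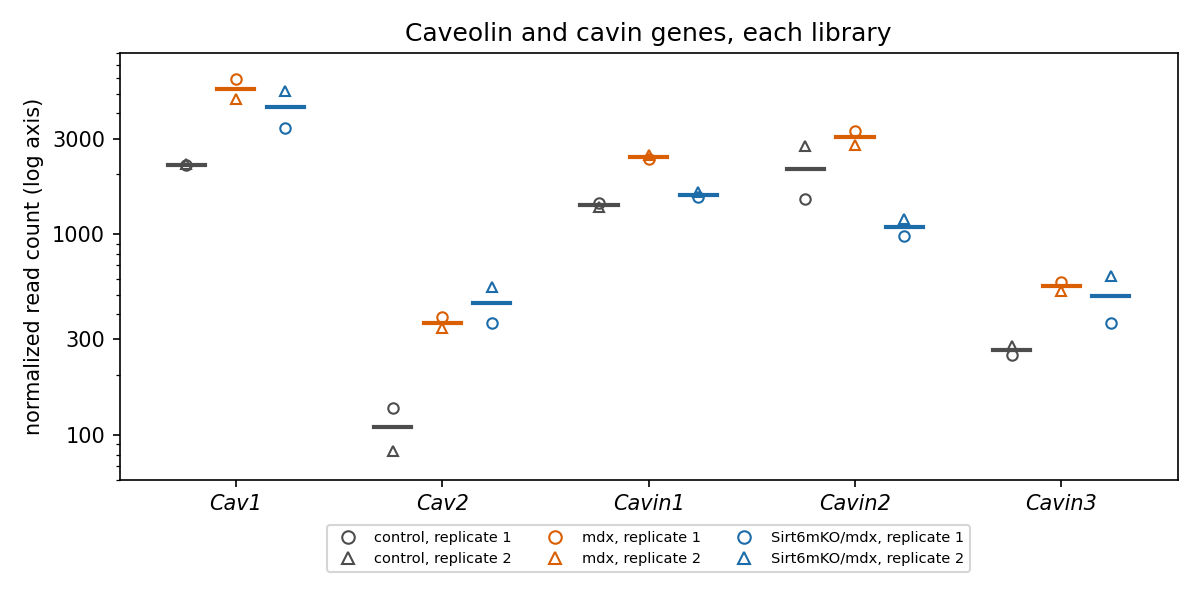
Normalized read count (log axis) of the caveolin genes Cav1 and Cav2 and the cavin genes in each library, with group means (n = 2) as bars. All 5 genes are higher in the mdx libraries than in the control libraries, without overlap. In the Sirt6mKO/mdx-labelled libraries Cav2 stays at 362 and 547 while Cavin2 lies at 980 and 1197, below control, a difference that was not called.

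A list of 16 other surface markers and receptors of MuSCs was set beside the 10 genes. In mdx against control 4 were called, Cdh2 higher and Sdc4, Cd200 and Fgfr1 lower, against 14.2% of all tested genes, with a median log2 fold change of -0.47. Sdc4, a heparan sulphate proteoglycan that binds growth factors, fell 6.44-fold from 7692 and 6224 to 1100 and 1049 (log2 fold change -2.69, SE 0.28, adjusted p 1.3e-05), a call that held without any 1 library. Cd200, an immunoglobulin superfamily protein that restrains myeloid cells, fell 2.65-fold from 1722 and 2066 to 674 and 751 (-1.41, adjusted p 0.0020). Fgfr1, an FGF receptor, was at 5832 and 4395 in control and 2444 and 2619 in mdx, a log2 fold change of -1.0 (adjusted p 0.034) at the edge of the minimum size, and its call was lost in 10 of the 17 alternatives. In the Sirt6mKO/mdx-labelled libraries against mdx 3 were called, against 8.17% of all tested genes, Sdc4 higher (2753 and 2822; 1.37, adjusted p 0.0067) and Sdc3 and Cdh2 lower. Sdc3, a further syndecan, was at 282 and 318 in mdx and 158 and 127 in these libraries (-1.07, adjusted p 0.030). The call of Sdc4 was lost with total counts (0.75), without mdx replicate 2 (1.34) and without either Sirt6mKO/mdx library (1.39 and 1.36). That of Sdc3 was lost without any 1 of the 4 libraries, with values from -1.23 to -0.92. Against control 4 were called, against 7.87% of all tested genes, and all were lower, namely Sdc4, Sdc3, Cd200 and the Notch receptor gene Notch3. Notch3 was at 7831 and 6184 in control and 3049 and 2789 in these libraries (-1.25, adjusted p 0.025). Each of these 4 calls was lost when a library of the Sirt6mKO/mdx label was left out, replicate 1 for Cd200 (-1.18) and either one for the others. Of the 21 genes for ligands and partners of the markers 18 were tested, and 3 were called in each comparison, against 14.2%, 8.17% and 7.87% of all tested genes in the order above. Over both lists together, of the 16 and 18 genes tested, 7, 6 and 7 were called, against the same shares. With total counts these were 6, 11 and 18, against 14%, 21.4% and 19.8% of all tested genes. With one prior variance they were 3, 0 and 0, against 3.4%, 0% and 0.547%. Without any filter they were 5, 0 and 1, against 4.4%, 0.747% and 0.983%. With 1 library left out they were 5 to 10 in mdx against control. Against mdx 0 were called without mdx replicate 2 or either library of the Sirt6mKO/mdx label and 2 without mdx replicate 1, and against control 1 without either library of that label and 3 without control replicate 2.

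By the root mean square difference of centred log2 values over the 6 libraries, the genes most like Met among 9665 with a mean of at least 50 were Cnp (0.097), Psmd14 (0.099) and Lrrcc1 (0.11). Psmd14, a proteasome subunit gene, was at 125 and 116, 341 and 351, and 156 and 218 in the 3 groups. Those most like Cav1 were Dars (0.067), Pnrc2 (0.071) and Timm21 (0.082). Dars, which encodes aspartyl-tRNA synthetase, was at 421 and 416 (control), 1175 and 914 (mdx) and 604 and 901 (Sirt6mKO/mdx-labelled). Those most like Ncam1 were G3bp1 (0.11), Cad (0.14) and Heatr1 (0.14). G3bp1, a stress granule protein gene, was at 772 and 1106, 635 and 561, and 364 and 305. With 6 libraries many genes come close to any pattern, and these values describe likeness without a test.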

How the data were processed

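Total RNA of freshly sorted MuSCs was depleted of ribosomal RNA and sequenced on an Ion Torrent instrument. Per the processing notes and methods, Reaper was used by the authors for trimming, STAR (2.4.2a in the notes) for alignment to GRCm38, and featureCounts 1.4.5-p1 for exonic reads per gene, without multiply assigned reads. Strand use is not given in the sources used here, so antisense and overlapping genes are uncertain. The deposited values were taken as a score: normalized read counts which the authors divided by a size factor per library and rounded. The regular gaps in these whole numbers gave factors from 0.537 to 1.53; the same search found all 4 factors of simulated libraries within 0.01. The study's test, DESeq2, needs raw counts and was not used.

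limma 3.58.1 (R 4.3.3) was fitted to log2(value + 1) with a prior variance following the mean, all 6 libraries in one fit and no block. Fold changes on this scale understate changes of low genes. Genes with a mean of at least 5 were tested (15915). Intervals are 95% intervals of the fit. The fit was tested on simulated data. Two-sided p-values set each change against the spread between these libraries, which may be technical. That spread was estimated in large part from other genes of like mean, as the prior had 12.1 degrees of freedom. Lengths and overlaps came from GENCODE mouse release 21 (98.5% of gene identifiers matched), promoters from RefSeq (GRCm38.p6). All 10 markers are named. Of the other genes, called ones, the ligands, coreceptors and integrin partners, and the 3 genes closest to each called marker are named by rule; context genes, Gab1, Grb2, the catenins, Cavin1, Cav3 and Megf11 were named after their values were seen. Markers and lists were chosen with earlier results of these data known. Same-numbered libraries deviated from their group means with correlations of -0.13, 0.12 and 0.01 across genes, so numbers were not taken to pair libraries.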

Additional observations from a re-analysis of the deposited data

How the results depend on the processing

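Each of the 30 fold changes of the 10 markers was recomputed under 17 alternatives, giving 510 values: 471 kept their direction and side of the threshold, 14 lost a call, 8 gained one and 17 changed sign. The cause was not tested. In mdx against control, where 2 markers were called, 1 was called without a filter on low values and 0 with one prior variance for all genes; with 1 library left out 1 to 2 were called. In the Sirt6mKO/mdx-labelled libraries against mdx, where 1 was called, 0 were called without a filter, 0 with one prior variance and 6 with scaling by total counts, all lower; with 1 library left out 0 to 1. Against control, where 1 was called, 0 were called with one prior variance and 3 with total counts; with 1 library left out 0 to 1. Total counts put the all-gene median at -0.58 in both comparisons of these libraries, whose summed values were 9626453 and 8883310 against 5564142 to 6642949 elsewhere, and the share of higher genes among all calls went from 68.8% to 14.0% and from 65.9% to 14.5%. All-gene calls fell from 2265, 1300 and 1253 to 989, 168 and 221 without a filter and to 541, 0 (3156 genes at an unadjusted p under 0.05) and 87 with one prior variance, and went to 2235, 3411 and 3147 with total counts; with 1 library left out they were 939 to 2356, 203 to 1475 and 213 to 1314.

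Total counts turned Cd34 against mdx to -0.50, and against control Met to -0.22, Cdh15 to -0.52, Cd34 to -0.50 and Cxcr4 to -0.22. Leaving out 1 library also turned signs: in mdx against control Cd34 ranged from -0.30 to 0.25, Cxcr4 from -0.77 to 0.14, Megf10 from -0.20 to 0.0915 and Calcr from -1.08 to 0.18. In the Sirt6mKO/mdx-labelled libraries against mdx Cd34 ranged from -0.10 to 0.36 and Calcr from -0.73 to 0.53. Against control Itga7 ranged from -0.29 to 0.13, Cd34 from -0.17 to 0.38 and Vcam1 from -0.62 to 0.21. With the replicate number as a block, the calls of the markers were as without it (2, 1 and 1), and all-gene calls were 2415, 1510 and 1404.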

Other observations

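Cav2, Cav1 and Met are neighbours on chromosome 6, with 122 kb between the end of Cav1 and the start of Met, and all 3 were called higher in mdx. The next coding gene, Capza2, an actin capping protein gene chosen after its values were seen, was at 612 and 517 (control), 1254 and 957 (mdx) and 1045 and 1221 (Sirt6mKO/mdx-labelled). Its log2 fold change in mdx was 0.96 (limma, adjusted p 0.017), just under the minimum size, and 1.0 in the Sirt6mKO/mdx-labelled libraries against control (adjusted p 0.022), where it was called. St7, which follows, was at 148 and 138, 115 and 93, and 87 and 110 in the 3 groups and was not called. In the Sirt6mKO/mdx-labelled libraries, the log2 fold changes of Met, Cav1, Cav2 and Capza2 against mdx were -1.07, -0.33, 0.29 and 0.04 with the deposited scaling; the difference between these genes was not tested.

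Of the 8 listed quiescence genes, 2 were called in mdx against control (1 higher and 1 lower, 14.2% of all tested genes called), 2 in the Sirt6mKO/mdx-labelled libraries against mdx (both higher, 8.17%) and 3 in these against control (2 higher and 1 lower, 7.87%). Cdkn1c, a cyclin-dependent kinase inhibitor gene, was at 57 and 180 (control), 1218 and 1072 (mdx) and 317 and 674 (Sirt6mKO/mdx-labelled). Of its exonic bases 30.7% overlap the gene Gm44732 on the other strand, so its value is uncertain. Foxo3, a forkhead transcription factor gene, was at 1879 and 1164, 329 and 426, and 825 and 765. Among genes of other cell types, Pdgfra, the defining gene of fibro-adipogenic cells, was at 195 in mdx replicate 1 and 142 in Sirt6mKO/mdx replicate 1 and at 15 to 59 in the other 4 libraries, and Ly6a, which encodes Sca1, was at 79 and 65 in the same libraries and at 3 to 21 in the others. The 10 listed fibro-adipogenic genes summed to 26958 to 46187, mostly Col3a1.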
